A study of Homo sapiens with 10 samples.

Results

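The comparison described here sets 4 libraries of 12Z cells exposed to IL1β together with 1 µM of a JNK inhibitor against 2 libraries of the same cells exposed to IL1β alone, and asks which transcripts moved the same way with both compounds. 12Z is an established line of human endometriotic epithelial cells that the labels place in peritoneal endometriosis. The 6 libraries, of 10 in the series, were taken by their treatment labels: IL1β with 1 µM CDD-2728 (2 libraries), IL1β with 1 µM CDD-3013 (2 libraries) and IL1β alone (2 libraries). Every culture had been kept overnight in 2% charcoal-stripped serum without phenol red, and DMSO or an inhibitor was given 30 min before IL1β, at 10 ng/ml for 6 h. The other 4 libraries, vehicle without IL1β and IL1β with 10 µM CDD-2728, entered the fit to estimate the spread, and vehicle levels are given as a background. No library received an inhibitor without IL1β, and 1 cell line was used throughout. Nothing states that the 2 libraries of a group came from separate cultures, so each p-value reflects only how far these samples differ from one another, and that spread may be technical.

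The c-Jun N-terminal kinases, JNK, are MAP kinases switched on by inflammatory cytokines and stress. Once active they phosphorylate JUN and related bZIP proteins of the AP-1 and ATF families, which bind as dimers to short DNA elements and act on many genes, JUN among them. IL1β signals through its receptor to JNK and p38 and, by a separate branch, to NF-κB, and many inflammatory genes carry sites for both AP-1 and NF-κB. Endometriotic lesions are inflamed tissue in which IL1β, chemokines and prostaglandins are abundant.

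Library totals ran from 16312600 to 18453896 counts in the 6 libraries, and 15740 genes had enough counts to be tested. Replicates of these groups correlated at Pearson's r of 0.990 to 0.992 across genes. Keratins KRT8 and KRT18 averaged 7276 and 2197 CPM (counts scaled to library size) over the 6 libraries. Among the other epithelial markers, CDH1 and MUC1 averaged 8.77 and 12.3 CPM. EPCAM, ESRP1, CLDN3, CLDN4 and CLDN7 were under 1 CPM, and GRHL2 had no counts. The stromal collagen COL1A1 and the mesothelial marker LRRN4 averaged 2917 and 538 CPM. Of the immune markers, PTPRC averaged 0.18 CPM, CD14 19.9 CPM and NCAM1 5.95 CPM. An average of at least 1 CPM was reached by 6 of 12 epithelial, 11 of 12 stromal and 7 of 8 mesothelial markers. Among endothelial and immune markers, 4 of 8 and 2 of 15 reached it. The labelled epithelial type thus rests mainly on keratins here, beside low levels of CDH1 and MUC1, and more of the stromal and mesothelial lists was detected. Summed epithelial markers were 8905 to 10650 CPM with CDD-2728 and 12260 to 13460 CPM with CDD-3013, against 9009 to 9125 CPM with IL1β. Stromal markers summed to 7148 to 7622 CPM with CDD-2728 and 7011 to 7509 CPM with CDD-3013, against 6522 to 6704 CPM with IL1β. Mesothelial markers summed to 1072 to 1084, 1136 to 1154 and 968.6 to 972.9 CPM in the same order of groups. In bulk RNA, fewer cells of a type and less RNA per cell cannot be told apart. Ribosomal protein genes held 3.71% and 3.0% of counts with CDD-2728 and 4.01% and 4.75% with CDD-3013, against 2.81% and 2.88% with IL1β, and their part in the results was not tested beyond fits with offsets for length and GC content.

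Promoters of the 6 genes with the largest drops that have a RefSeq entry, of JUN itself and of the gene that rose furthest are printed here, because JNK acts on factors that bind elements of this kind. Each runs 5′ to 3′ from 250 bases before to 50 bases after the RefSeq start (GRCh38.p14), and capitals mark the elements searched: TGACTCA and TGANTCA (the AP-1 element and its looser form, which includes the first), TGACGTCA (the CRE) and TGACATCA (the element known from the JUN promoter), on both strands.
CREB5 promoter (chr7:28412268-28412567, plus strand): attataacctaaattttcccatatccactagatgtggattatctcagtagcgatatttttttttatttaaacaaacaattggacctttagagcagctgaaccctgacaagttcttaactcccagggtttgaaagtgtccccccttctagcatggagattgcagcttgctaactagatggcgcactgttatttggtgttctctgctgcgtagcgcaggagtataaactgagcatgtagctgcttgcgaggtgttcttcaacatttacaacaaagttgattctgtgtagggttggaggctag
DUSP8 promoter (chr11:1572222-1572521, minus strand): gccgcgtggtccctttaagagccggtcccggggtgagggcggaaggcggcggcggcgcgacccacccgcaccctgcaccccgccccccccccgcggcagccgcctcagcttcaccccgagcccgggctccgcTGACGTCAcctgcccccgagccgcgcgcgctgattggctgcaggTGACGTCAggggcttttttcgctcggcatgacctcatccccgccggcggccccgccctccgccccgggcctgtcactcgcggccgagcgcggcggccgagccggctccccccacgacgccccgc
HBEGF promoter (chr5:140346554-140346853, minus strand): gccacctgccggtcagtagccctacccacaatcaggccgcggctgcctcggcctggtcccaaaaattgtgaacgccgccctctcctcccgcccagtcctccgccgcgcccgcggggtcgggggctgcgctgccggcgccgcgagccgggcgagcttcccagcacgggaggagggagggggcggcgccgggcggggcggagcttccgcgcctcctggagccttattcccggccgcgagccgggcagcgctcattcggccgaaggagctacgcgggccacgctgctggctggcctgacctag
NEDD9 promoter (chr6:11382299-11382598, minus strand): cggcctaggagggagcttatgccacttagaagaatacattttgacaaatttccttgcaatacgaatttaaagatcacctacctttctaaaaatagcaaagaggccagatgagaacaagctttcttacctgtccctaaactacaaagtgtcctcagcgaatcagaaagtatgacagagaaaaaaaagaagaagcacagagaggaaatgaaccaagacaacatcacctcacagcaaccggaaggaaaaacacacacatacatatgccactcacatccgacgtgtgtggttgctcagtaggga
ROS1 promoter (chr6:117425893-117426192, minus strand): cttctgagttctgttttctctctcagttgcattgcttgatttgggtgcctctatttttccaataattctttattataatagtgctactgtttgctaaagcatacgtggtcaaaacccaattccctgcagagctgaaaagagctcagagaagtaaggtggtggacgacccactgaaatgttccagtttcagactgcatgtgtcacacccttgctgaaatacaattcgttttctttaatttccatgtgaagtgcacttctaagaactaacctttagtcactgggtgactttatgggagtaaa
BACH2 promoter (chr6:90296794-90297093, minus strand): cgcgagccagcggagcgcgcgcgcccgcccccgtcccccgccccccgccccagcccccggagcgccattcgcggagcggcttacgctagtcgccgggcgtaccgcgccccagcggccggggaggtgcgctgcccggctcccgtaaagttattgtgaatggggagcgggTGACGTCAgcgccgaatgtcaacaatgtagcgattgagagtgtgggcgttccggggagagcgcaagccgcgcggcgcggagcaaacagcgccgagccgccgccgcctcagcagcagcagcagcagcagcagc
JUN promoter (chr1:58783998-58784297, minus strand): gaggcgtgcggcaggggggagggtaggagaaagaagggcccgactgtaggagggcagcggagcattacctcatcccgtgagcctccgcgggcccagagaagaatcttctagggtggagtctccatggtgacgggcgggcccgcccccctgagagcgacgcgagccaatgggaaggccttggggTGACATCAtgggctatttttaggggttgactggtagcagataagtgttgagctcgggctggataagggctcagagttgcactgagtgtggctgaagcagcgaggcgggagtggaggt
TDO2 promoter (chr4:155903446-155903745, plus strand): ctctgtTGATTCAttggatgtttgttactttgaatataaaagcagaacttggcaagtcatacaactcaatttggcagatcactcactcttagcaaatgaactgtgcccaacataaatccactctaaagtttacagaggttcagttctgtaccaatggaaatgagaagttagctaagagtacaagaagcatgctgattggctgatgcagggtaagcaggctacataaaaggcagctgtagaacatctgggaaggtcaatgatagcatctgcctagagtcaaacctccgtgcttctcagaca
The DUSP8 window held the CRE at 2 places, starting 118 and 74 bases before the gene start. The BACH2 window held a CRE starting 82 bases before, the JUN window TGACATCA 67 bases before, and the TDO2 window the looser AP-1 element 244 bases before. The CREB5, HBEGF, NEDD9 and ROS1 windows held none of the letters searched. Of 29 genes, those with the largest shared changes and JUN, which was added by choice, 20 had a RefSeq promoter. A match was present in 3 of 13 lowered and 1 of 7 raised genes. JUN is 1 of those 3, and TGACATCA was searched because it is known from that promoter. Among 34796 promoters of the same length, 4.96% held TGACTCA, 7.73% TGANTCA, 1.84% TGACGTCA and 2.60% TGACATCA. The share holding any of these elements was not computed, so the counts of matches are a description only. For JUN, CREB5 and TDO2 the RefSeq window lies inside the gene span of GENCODE 29, so the annotations place their starts differently.

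With both compounds pooled against IL1β, 4245 genes were called (27.0% of those tested): 2218 genes were higher (14.1%) and 2027 lower (12.9%) at an adjusted p under 0.05 (edgeR quasi-likelihood test, Benjamini-Hochberg). All 4 inhibitor libraries lay above both IL1β libraries in 16.8% of tested genes and below both in 17.5%, 34.3% in all. Both conditions, a call and all 4 libraries beyond both IL1β libraries, were met by 1652 higher genes (10.5%) and 1659 lower genes (10.5%), 21.0% in all, here termed shared changes. Of these, 304 higher and 402 lower genes changed at least 1.5-fold (4.49% of tested genes), and 91 and 140 at least 2-fold (1.47%). Each compound was called on its own in 43 of the 91 and in 30 of the 140. A further 934 called genes did not have all 4 libraries on one side. When each compound also had to pass on its own against the same 2 IL1β libraries, 296 higher and 376 lower genes were left (1.88% and 2.39%, 4.27% in all), and 0 genes were called in opposite directions. Both comparisons subtract those same IL1β libraries, so likeness in direction is partly built in and is not read as a result. CDD-2728 alone was called in 4.59% of tested genes (2.03% higher, 2.57% lower) and CDD-3013 alone in 36.4% (19.0% higher, 17.3% lower). Among the shared changes, CDD-2728 was called alone in 312 higher and 394 lower genes, and CDD-3013 in 1591 and 1544.

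The size of these counts depended on the fit and on the libraries used. With the 6 libraries fitted as 2 groups, 181 genes were called higher and 223 lower, and all of these were shared changes. Without IL1β replicate 1 there were 796 higher and 715 lower shared changes (821 and 721 pooled calls), and without IL1β replicate 2 there were 1191 and 1145 pooled calls. Without CDD-2728 replicate 2 the higher shared changes numbered 2569. In that fit only the inhibitor libraries that remained had to lie beyond both IL1β libraries, which is a looser condition. Scaling by library totals made 39.8% of pooled calls higher, against 52.2% with TMM scaling.

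**Figure D1:**
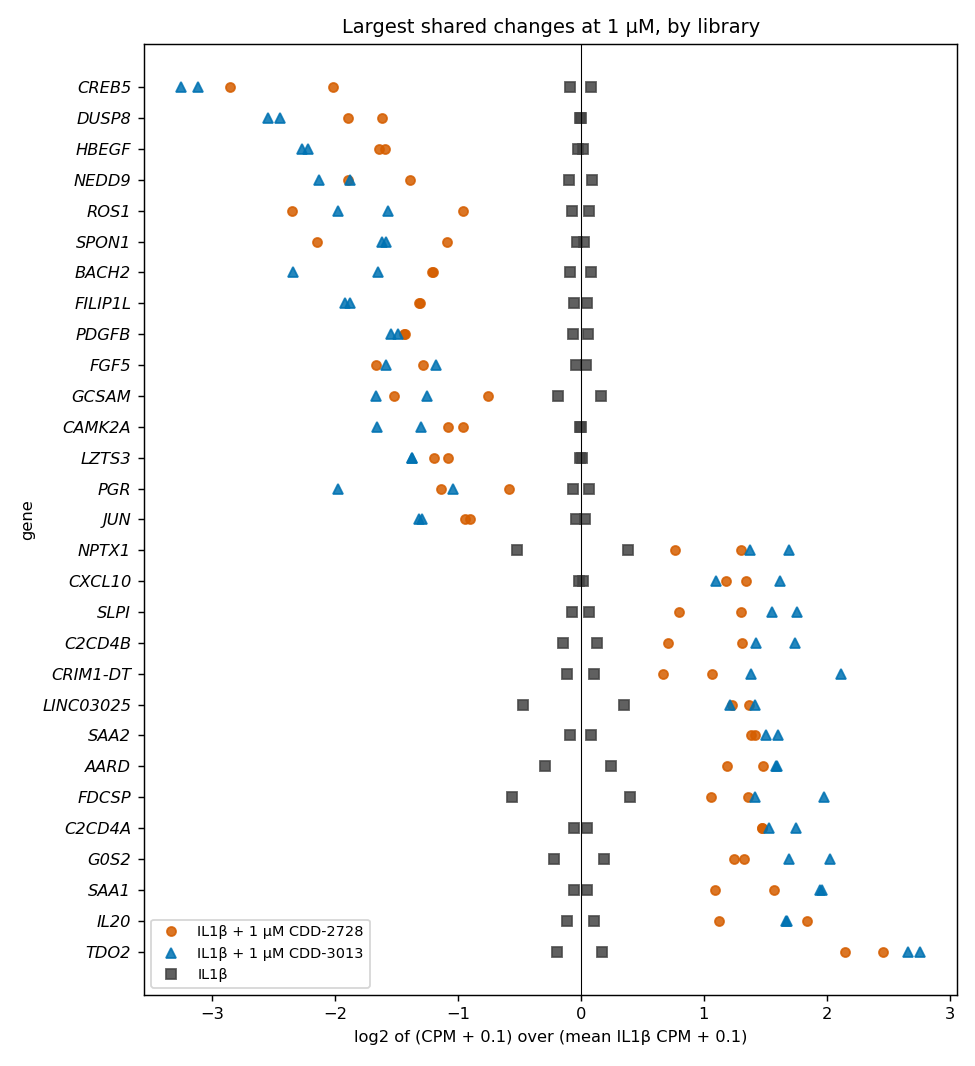
Each row is a gene of the largest shared changes (and JUN), and each symbol a library: circles for IL1β with 1 µM CDD-2728, triangles for IL1β with 1 µM CDD-3013 and squares for IL1β. The x axis is the log2 ratio of CPM to the IL1β mean, with 0.1 added to both; inhibitor symbols lie on one side of both IL1β squares in every row, which the choice of genes fixes.

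Among the AP-1 family, 6 of 16 tested genes were lower (37.5%, against 12.9% of all tested genes) and 3 higher (18.8%, against 14.1%), with a median log2 change of -0.16, against -0.01 over all tested genes. CREB5, a bZIP factor related to ATF2, had 2.37 and 4.32 CPM with CDD-2728 and 1.96 and 1.77 CPM with CDD-3013, against 16.7 and 18.8 CPM with IL1β, and 2.95 and 3.58 CPM in vehicle. The 4 inhibitor libraries lay near or below the vehicle level and far under IL1β, a 7.11-fold drop (log2 change -2.83 ± 0.19 (SE), adjusted p = 2.11e-10). The gene of the AP-1 subunit JUN, from which the kinase takes its name, had 164.9 and 168.8 CPM with CDD-2728 and 126.9 and 129.2 CPM with CDD-3013, against 308.1 and 324.7 CPM with IL1β, and 132.6 and 146 CPM in vehicle. The groups did not overlap, and the pooled log2 change was -1.11 ± 0.06 (adjusted p = 1.06e-11).

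JUND, a JUN paralog, fell by 0.52 ± 0.06 on the log2 scale, with 254 and 233 CPM with CDD-2728 and 261 and 273 CPM with CDD-3013, against 377 and 355 CPM with IL1β. ATF3, a stress-responsive bZIP factor, fell by 0.54 ± 0.10. JUNB, another JUN paralog, was higher instead (log2 change 0.52 ± 0.09). It had 134 and 112 CPM with CDD-2728 and 169 and 185 CPM with CDD-3013, against 97.5 and 109 CPM with IL1β. CDD-2728 did not pass for JUNB alone (edgeR adjusted p = 0.175). MAF, a large bZIP factor, rose by 0.78 ± 0.08. FOS, the classical partner of JUN, was at 1.70 to 4.22 CPM in the 6 libraries (0.75 ± 0.23, edgeR adjusted p = 0.0144). CDD-2728 did not pass for FOS alone (adjusted p = 0.292). The pooled FOS call was lost without IL1β replicate 2 and in the fit of the 6 libraries as 2 groups. It was also lost with length and GC offsets plus a replicate block. FOSL1, another FOS family member, did not pass (-0.38 ± 0.14, adjusted p = 0.057), but it was lower in every alternative and called in 8 of 16.

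The kinases themselves were not called: MAPK8 (JNK1) had a pooled log2 change of -0.19 ± 0.08, MAPK9 (JNK2) of -0.18 ± 0.07 and MAPK10 (JNK3), under 2 CPM in all 6 libraries, of 0.21 ± 0.37. Of 16 alternatives, 1 called MAPK8 lower (library totals) and 3 called MAPK9 lower. In the list of JNK and p38 pathway genes 2 of 25 were higher and 4 lower (8.0% and 16.0%, near the 14.1% and 12.9% of all tested genes), with a median of 0.03, and without IL1β replicate 2 the lower calls numbered 2.

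MAPK phosphatases and Sprouty-type feedback genes gave 8 lower and 3 higher of 18, with a median of -0.26. Those shares were 44.4% and 16.7%, against 12.9% and 14.1% of all tested genes. DUSP8, a phosphatase that acts on JNK and p38, had 15.9 and 19.3 CPM with CDD-2728 and 10.8 and 10.1 CPM with CDD-3013, against 59.4 and 59.7 CPM with IL1β, and 23.4 and 20.9 CPM in vehicle. Every inhibitor library lay below vehicle as well as IL1β, and the drop was 4.38-fold (-2.13 ± 0.10, adjusted p = 2.81e-13). DUSP1, an early-induced phosphatase of the same family, fell by 0.74 ± 0.09, DUSP4 by 0.62 ± 0.08 and DUSP16 by 0.52 ± 0.07. Without IL1β replicate 1 the lower calls of this list numbered 4, and without IL1β replicate 2 the higher calls numbered 1. Of 18 immediate-early genes 4 were lower and 1 higher, with a median of 0.06, so count and median differ in sign; without IL1β replicate 1 or CDD-3013 replicate 1 the lower calls numbered 2. In the main fit 22.2% of the immediate-early list was lower and 5.56% higher. The zinc-finger factor KLF6 fell to 77.3 and 88.4 CPM with CDD-2728 and 61.7 and 72.1 CPM with CDD-3013, against 155.8 and 150.3 CPM with IL1β. EGR1, at 0.594 to 2.52 CPM in the 6 libraries, had a change of -0.85 ± 0.30 (adjusted p = 0.0375). One inhibitor library lay above an IL1β library, and CDD-2728 did not pass for EGR1 alone (edgeR adjusted p = 0.521). The pooled call was lost in 6 of 16 alternatives: without IL1β replicate 1, CDD-2728 replicate 1 or CDD-3013 replicate 1, with DESeq2 and in both fits of the 6 libraries alone.

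EGFR ligands and growth factors held the highest share of lower calls of the pathway lists, 9 of 17 (52.9%, against 12.9% of all tested genes). Higher calls numbered 2 (11.8%, against 14.1% of all tested genes), and the median was -0.23. HBEGF was the only EGF receptor ligand among the tested members, as AREG, EREG, TGFA, BTC and EPGN were not tested. The other lower calls were EGFR itself and genes of the FGF, PDGF and VEGF families. HBEGF, a membrane-anchored ligand of the EGF receptor, had 48.8 and 50.6 CPM with CDD-2728 and 31.6 and 32.7 CPM with CDD-3013, against 150.5 and 155 CPM with IL1β, and 48.2 and 54.6 CPM in vehicle. The replicates of each group were close, CDD-2728 libraries stood at the vehicle level and CDD-3013 libraries under it, and the drop was 3.82-fold (-1.93 ± 0.07, adjusted p = 1.99e-15). PDGFB, a mitogen for mesenchymal cells, had 14.2 and 14.3 CPM with CDD-2728 and 13.2 and 13.7 CPM with CDD-3013, against 40.2 and 37 CPM with IL1β (-1.48 ± 0.09). FGF5 fell by 1.44 ± 0.17 and TGFB2, a TGF-β ligand from the list of that pathway, by 0.90 ± 0.09. With transcript length and GC content corrected, the growth factor list gave 3 higher and 7 lower, and its median was -0.02.

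Lower calls also stood above the 12.9% background among adhesion molecules and integrins (10 of 22, 1 higher), cytoskeletal and SRF target genes (7 of 19, 2 higher), matrix proteases and inhibitors (9 of 26, 4 higher) and matrix genes (8 of 24, 4 higher). FILIP1L and NEDD9 are 2 of the 7 lower calls of the cytoskeletal list. The lists were chosen with earlier results of these data known, so that count is a description. FILIP1L, a filamin A-interacting protein, had 106 and 105 CPM with CDD-2728 and 71.5 and 69.6 CPM with CDD-3013, against 254 and 273 CPM with IL1β (-1.61 ± 0.06, adjusted p = 1.99e-15). In vehicle it had 74.4 and 73.5 CPM, which the CDD-2728 libraries exceeded and the CDD-3013 libraries did not. NEDD9, a focal adhesion scaffold, fell by 1.85 ± 0.18, to 2.32 to 3.95 CPM in the 4 inhibitor libraries, against 9.85 and 11.2 CPM with IL1β.

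Tenascin C (TNC), a matrix glycoprotein of wounded and inflamed tissue, had 285 and 327 CPM with CDD-2728 and 218 and 219.8 CPM with CDD-3013, against 562 and 623 CPM with IL1β, and 77.5 and 79.3 CPM in vehicle. It stayed above vehicle in every inhibitor library although it fell by 1.19 ± 0.07. The protease inhibitor TIMP3 fell by 0.73 ± 0.07, and the receptors ITGA2, ITGB8 and ALCAM by 0.69 ± 0.08, 0.59 ± 0.07 and 0.42 ± 0.06. In the same lists thrombospondin THBS1 (0.64 ± 0.07), collagen COL3A1 (0.46 ± 0.06) and collagenase MMP1 (0.42 ± 0.11) were higher. The MMP1 call was lost without IL1β replicate 2, and CDD-2728 did not pass for MMP1 alone (edgeR adjusted p = 0.144). The stromelysins MMP3 and MMP10 did not pass (adjusted p = 0.284 and 0.0904). With length and GC content corrected, the matrix list gave 7 higher and 6 lower. Without IL1β replicate 1 the matrix list had 4 lower calls and the protease list 2 higher ones.

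**Figure D2:**
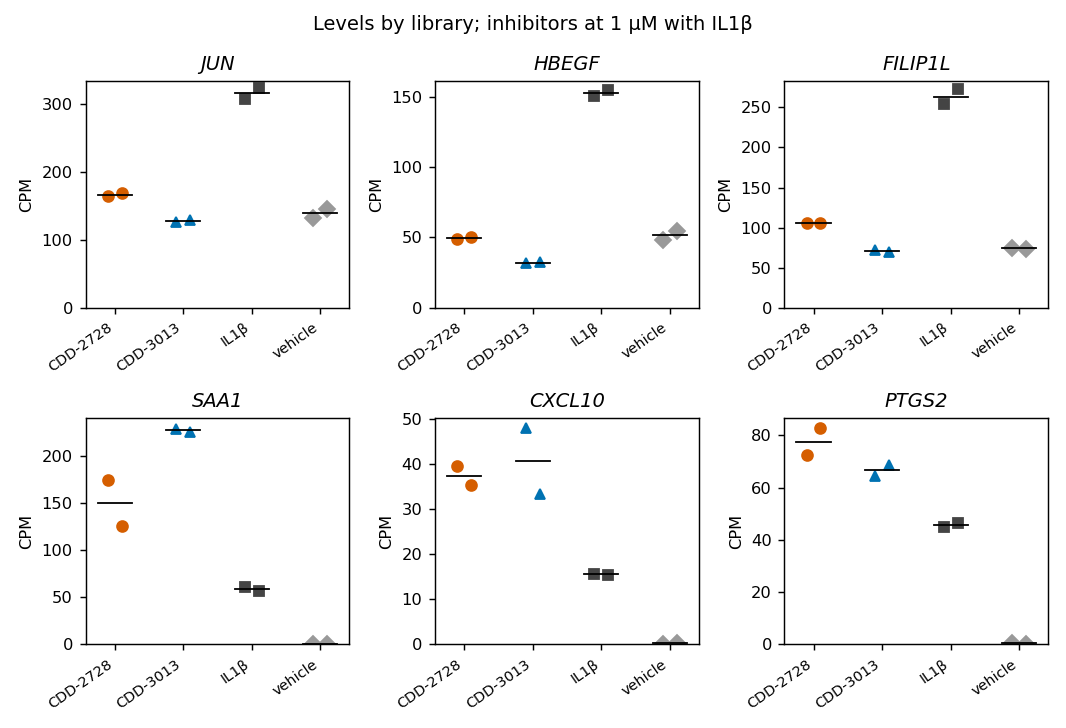
CPM of 6 genes in each library (symbols) with group means (bars), for IL1β with 1 µM CDD-2728, IL1β with 1 µM CDD-3013, IL1β and vehicle. JUN, HBEGF and FILIP1L have all inhibitor libraries below IL1β, and SAA1, CXCL10 and PTGS2 have all of them above it; JUN lies between 126.9 and 168.8 CPM with inhibitor.

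The other side of the comparison held inflammatory genes that rose above the IL1β level. Of 41 interferon-stimulated genes 27 were higher (65.9%, against 14.1% of all tested genes) and 0 lower (edgeR), with a median of 0.49, and 19 were called for each compound on its own against the shared IL1β libraries. IFIT1, an antiviral RNA-binding protein, had 76.2 and 65.7 CPM with CDD-2728 and 83 and 65.2 CPM with CDD-3013, against 42 and 44.5 CPM with IL1β, and 17.7 and 21.3 CPM in vehicle (0.75 ± 0.09, adjusted p = 1.45e-05). The replicates of each compound were spread by over 10 CPM, yet the lowest inhibitor library was above both IL1β libraries. IFIT3, of the same family, rose by 0.69 ± 0.08, and OASL, an oligoadenylate synthetase-like protein, by 1.20 ± 0.15.

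Antigen presentation genes gave 11 higher and 0 lower of 15 (73.3% and 0.0%, against 14.1% and 12.9% of all tested genes), with a median of 0.36. The immunoproteasome subunits PSMB10 and PSMB8 rose by 0.80 ± 0.09 and 0.63 ± 0.09. Each compound passed on its own in 2 of the 15, and without IL1β replicate 1 the higher calls numbered 6.

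Acute-phase and complement genes had the highest share of higher calls of the lists, 11 of 14 with 0 lower and a median of 0.73. That share was 78.6%, against 14.1% of all tested genes. SAA1, an acute-phase apolipoprotein, had 174.9 and 125.3 CPM with CDD-2728 and 229 and 226 CPM with CDD-3013, against 60.8 and 56.5 CPM with IL1β, and 0.554 and 0.818 CPM in vehicle. All 4 inhibitor libraries were more than 2-fold above IL1β, and the pooled rise was 3.15-fold (1.65 ± 0.10, adjusted p = 1.26e-07). SAA2, a near-identical copy with which reads may be shared, rose by 1.48 ± 0.08, and the chitinase-like protein CHI3L1 by 1.22 ± 0.13. SLPI, a secreted protease inhibitor outside the list, rose by 1.37 ± 0.14.

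Chemokines and cytokines moved both ways, 10 higher and 4 lower of 28 (2 lower without IL1β replicate 1), with a median of 0.26. Higher calls were 35.7% of this list, against 14.1% of all tested genes, and lower calls 14.3%, near the 12.9% of all tested genes. CXCL10, an attractant of T cells, had 39.6 and 35.3 CPM with CDD-2728 and 48 and 33.5 CPM with CDD-3013, against 15.7 and 15.4 CPM with IL1β, and 0.185 and 0.307 CPM in vehicle. It was 2.51-fold above IL1β (1.33 ± 0.12, adjusted p = 1.48e-07). CXCL8, an attractant of neutrophils, went the other way, with 712 and 647 CPM with CDD-2728 and 491 and 656 CPM with CDD-3013, against 1005 and 915 CPM with IL1β (-0.62 ± 0.10, adjusted p = 0.000642). It had 2.12 and 1.74 CPM in vehicle, so its level stayed far above vehicle with either compound.

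IL6, a pleiotropic cytokine, had 101 and 113 CPM with CDD-2728 and 95.2 and 98.8 CPM with CDD-3013, against 84.5 and 71.5 CPM with IL1β (0.38 ± 0.07, adjusted p = 0.000501). CCL2, an attractant of monocytes, had 438 and 384 CPM with CDD-2728 and 427 and 488 CPM with CDD-3013, against 321 and 337 CPM with IL1β (0.40 ± 0.07). In both genes the groups did not overlap, and the rises were 1.31-fold for IL6 and 1.32-fold for CCL2. The death ligand TNFSF10 rose by 1.29 ± 0.13, and IL18, an IL1-family cytokine, fell by 0.59 ± 0.07. IL20, at 1.92 to 3.21 CPM in inhibitor libraries against 0.895 and 0.754 CPM with IL1β, rose by 1.70 ± 0.36.

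NF-κB pathway and feedback genes gave 11 higher and 4 lower of 27 (1 lower without IL1β replicate 1), with a median of 0.15. Higher calls were 40.7% of this list, against 14.1% of all tested genes, and lower calls 14.8%, near the 12.9% of all tested genes. The IκB-family protein BCL3 rose by 0.55 ± 0.07 and TNFAIP2 by 0.45 ± 0.06, whereas the adaptor TRAF1 fell by 1.17 ± 0.10, to 21.9 and 19.9 CPM with CDD-2728 and 13.6 and 16.3 CPM with CDD-3013, against 38.7 and 41 CPM with IL1β. TNFAIP3, a ubiquitin-editing inhibitor of NF-κB, did not pass (-0.08 ± 0.06, adjusted p = 0.359), nor did the superoxide dismutase SOD2 (0.09 ± 0.06), NFKBIA (0.15 ± 0.07) or the adhesion molecule VCAM1 (-0.14 ± 0.06), although 3 alternatives called NFKBIA higher and 2 called VCAM1 lower. The adhesion molecule ICAM1 had 557 to 615 CPM with inhibitor, against 517 and 519 CPM with IL1β (0.15 ± 0.06, adjusted p = 0.0429). CDD-2728 did not pass for ICAM1 alone (edgeR adjusted p = 0.396). The pooled ICAM1 call held in 6 of 16 alternatives. It was lost without either IL1β library, CDD-2728 replicate 1 or CDD-3013 replicate 2, with the replicate block, with library totals, in both fits of the 6 libraries alone and with the length and GC offsets.

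Among prostaglandin genes 6 of 16 were higher and 1 lower (37.5% and 6.25%, against 14.1% and 12.9% of all tested genes). PTGS2, the inducible cyclooxygenase, had 72.4 and 82.6 CPM with CDD-2728 and 64.6 and 68.7 CPM with CDD-3013, against 45.1 and 46.6 CPM with IL1β, and 0.738 and 0.358 CPM in vehicle (0.65 ± 0.09, adjusted p = 3.45e-05). The phospholipase PLA2G4A, which releases arachidonic acid, rose by 0.76 ± 0.10 and the prostaglandin E2 receptor PTGER4 by 0.65 ± 0.09. TDO2, an enzyme that opens the tryptophan ring toward kynurenine, had the largest rise, with 13.6 and 10.9 CPM with CDD-2728 and 15.6 and 16.8 CPM with CDD-3013, against 2.07 and 2.70 CPM with IL1β, and 0.138 and 0.153 CPM in vehicle. That is 5.93-fold above IL1β (2.57 ± 0.20, adjusted p = 9.89e-10). In its list, 4 of 8 genes were higher (2 without either IL1β library) and 1 lower, and IDO1, which catalyses the same step, was at 1.01 to 2.02 CPM with inhibitor, against 0.504 and 0.377 CPM with IL1β (adjusted p = 0.00971, a call lost without either IL1β library).

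TGF-β and BMP pathway genes split, 8 higher and 7 lower of 25 (5 higher without IL1β replicate 1). The 8 and 7 were 32.0% and 28.0% of the list, against 14.1% and 12.9% of all tested genes. ID1, a BMP target that binds bHLH factors, had 191 and 155 CPM with CDD-2728 and 248 and 288 CPM with CDD-3013, against 88 and 97.5 CPM with IL1β (1.22 ± 0.08, adjusted p = 3.04e-09). Its vehicle level of 97 and 101 CPM was that of IL1β, so every inhibitor library exceeded both. SKIL, a repressor of SMAD signalling, fell by 0.64 ± 0.08. Higher and lower calls made up 61.1% and 5.56% of integrated stress response genes and 46.4% and 10.7% of cell cycle genes. Integrated stress response genes gave 11 higher and 1 lower of 18 (4 and 7 higher without IL1β replicates 1 and 2), among them CHAC1 (0.85 ± 0.13), a glutathione-degrading enzyme, and the bZIP factor CEBPB (0.49 ± 0.06). Cell cycle genes gave 13 higher and 3 lower of 28 (3 and 6 higher and 1 lower each without IL1β replicates 1 and 2), with MCM2 (0.35 ± 0.06) and MCM7 (0.29 ± 0.06) of the replicative helicase, and 1 of the 28 was called for each compound alone. Apoptosis regulators gave 5 higher and 4 lower of 19 (26.3% and 21.1%), above the 14.1% and 12.9% of all tested genes. With length and GC content corrected they gave 4 and 1, and in the fit of the 6 libraries as 2 groups 0 and 1. Fewer of them passed when either IL1β library was left out. Cholesterol synthesis genes gave 2 and 2 of 19 (10.5% each), near the shares over all tested genes, and 1 and 3 with library totals.

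**Figure D3:**
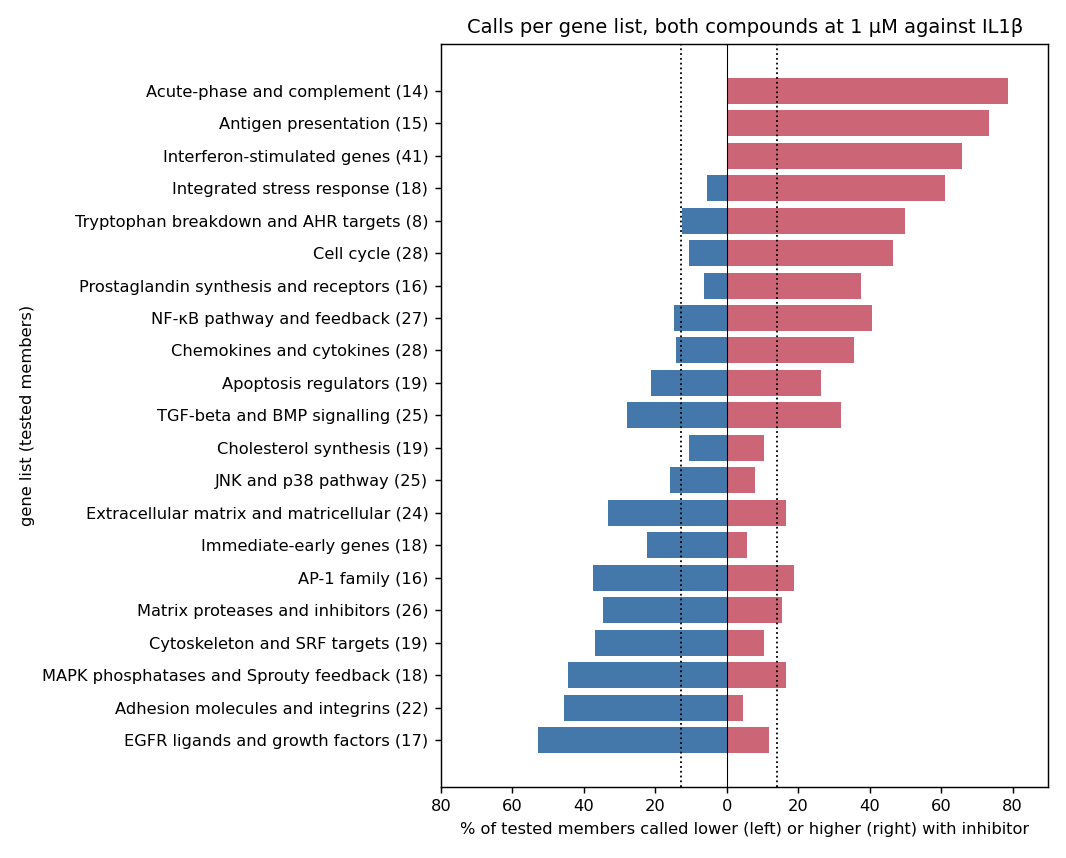
Share of tested members of each gene list called higher (right) or lower (left) with both compounds against IL1β, in percent; numbers in brackets are tested members and dotted lines the shares over all tested genes (14.1% and 12.9%). Acute-phase, antigen presentation and interferon-stimulated genes have higher calls and no lower ones. The list of EGFR ligands and growth factors, with HBEGF as its only tested EGFR ligand, has the largest share of lower calls.

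A fit of the 6 libraries as 2 groups, which puts the difference between the compounds into the spread, called fewer members of most lists while their medians stayed close. It left 13 interferon-stimulated, 7 acute-phase, 4 chemokine and cytokine, 3 NF-κB, 3 prostaglandin and 1 antigen presentation genes higher. It left 5 AP-1, 5 cytoskeletal, 4 MAPK phosphatase and Sprouty, 4 protease, 3 growth factor, 3 matrix and 2 adhesion genes lower. In the integrated stress response, cell cycle, JNK and p38 and cholesterol lists it called 0 genes in either direction, against the counts above in the fit of all 10 libraries. As 2 groups, 20 named genes lost their call, FOS, MMP1 and IDO1 among them. With offsets for length and GC content the median log2 change was 0.22 for antigen presentation (0.36 without them), 0.17 for chemokines and cytokines (0.26), 0.09 for NF-κB genes (0.15), -0.17 for adhesion genes (-0.25) and -0.09 for cytoskeletal genes (-0.14). Their cell cycle calls were 9 higher and 1 lower, and their interferon-stimulated calls 30 higher and 0 lower.

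Further genes among the largest drops included the receptor tyrosine kinase ROS1 (-1.72 ± 0.33), the matrix protein SPON1 (-1.69 ± 0.36), the bZIP repressor BACH2 (-1.61 ± 0.17), GCSAM (-1.32 ± 0.24), the kinase CAMK2A (-1.27 ± 0.19), LZTS3 (-1.26 ± 0.09) and the progesterone receptor PGR (-1.20 ± 0.27). PGR was at 0.713 to 2.04 CPM with inhibitor, against 3.25 and 2.95 CPM with IL1β, and CDD-2728 did not pass for it alone (adjusted p = 0.111). Further large rises were those of G0S2, an inhibitor of lipolysis (1.59 ± 0.20), C2CD4A (1.57 ± 0.14), FDCSP (1.54 ± 0.28), AARD (1.48 ± 0.20), C2CD4B (1.38 ± 0.27) and NPTX1 (1.32 ± 0.25). Most of these genes were under 20 CPM in all 6 libraries, and the SEs of the lowest ones are the widest.

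A direct comparison of the compounds at 1 µM, in which the IL1β libraries enter only the estimate of the spread, scaling and filter, called 1261 genes higher and 1550 lower with CDD-2728 than with CDD-3013 (8.01% and 9.85% of 15740). Among the shared changes the compounds differed in 662 of the 1652 higher genes, with CDD-3013 further from IL1β in 659, and in 558 of the 1659 lower genes, with CDD-3013 further in 555. The median log2 change of the higher shared set was 0.25 with CDD-2728 and 0.51 with CDD-3013, and that of the lower set -0.28 and -0.52. The members were chosen with both compounds' values, and most were called for CDD-3013 alone, so these counts and medians are a description. The labels give no structures, and the same nominal dose was used for both compounds.

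HBEGF was higher with CDD-2728 than with CDD-3013 by 0.63 on the log2 scale (95% interval 0.45 to 0.81, adjusted p = 0.000406), DUSP8 by 0.75 (0.47 to 1.02), FILIP1L by 0.59 (0.44 to 0.73), ITGB8 by 0.59 (0.42 to 0.75), TNC by 0.48 (0.32 to 0.65) and JUN by 0.38 (0.23 to 0.53). Each of these is a lowered gene that CDD-3013 lowered further. ID1 was lower with CDD-2728 by -0.63 (-0.81 to -0.45) and SAA1 by -0.60 (-0.83 to -0.36), rises that went further with CDD-3013. CDC42EP5, a CDC42-binding protein, was at 5.52 and 3.40 CPM with CDD-2728 and 9.98 and 9.30 CPM with CDD-3013, against 3.36 and 3.33 CPM with IL1β, a difference of -1.10 between the compounds (-1.52 to -0.69).

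For other shared changes the compounds were not called different, and the intervals bound the difference. That of PDGFB was 0.08 (-0.16 to 0.33), of CXCL10 -0.12 (-0.38 to 0.14), of IFIT1 -0.06 (-0.28 to 0.15), of PLA2G4A 0.01 (-0.22 to 0.24) and of IL6 0.14 (-0.03 to 0.31). For SPON1 the interval of -0.99 to 1.13 was much wider. TDO2 (-0.40, -0.71 to -0.08) and CREB5 (0.82, 0.21 to 1.44) had intervals that left out 0 but did not pass after adjustment over all genes (adjusted p = 0.074 and 0.0519).

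With transcript length and GC content corrected, the direct comparison called 179 genes higher and 416 lower. Of 31 named genes that differed between the compounds, 11 were still called, and CDC42EP5, DUSP8, FILIP1L, HBEGF, ID1, ITGB8, JUN and TNC were called under every alternative run. The sizes moved: with the offsets the difference was 0.27 for ITGB8 and -0.33 for ID1, both outside the intervals above, 0.49 for JUN, 0.75 for HBEGF, 0.88 for DUSP8, 0.48 for FILIP1L, 0.42 for TNC and -0.77 for CDC42EP5. For SAA1 it was -0.49 and no longer passed (adjusted p = 0.0523). Without CDD-2728 replicate 2 it called 338 and 318 genes, without CDD-3013 replicate 1 815 higher ones and without CDD-3013 replicate 2 450 and 501.

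**Figure D4:**
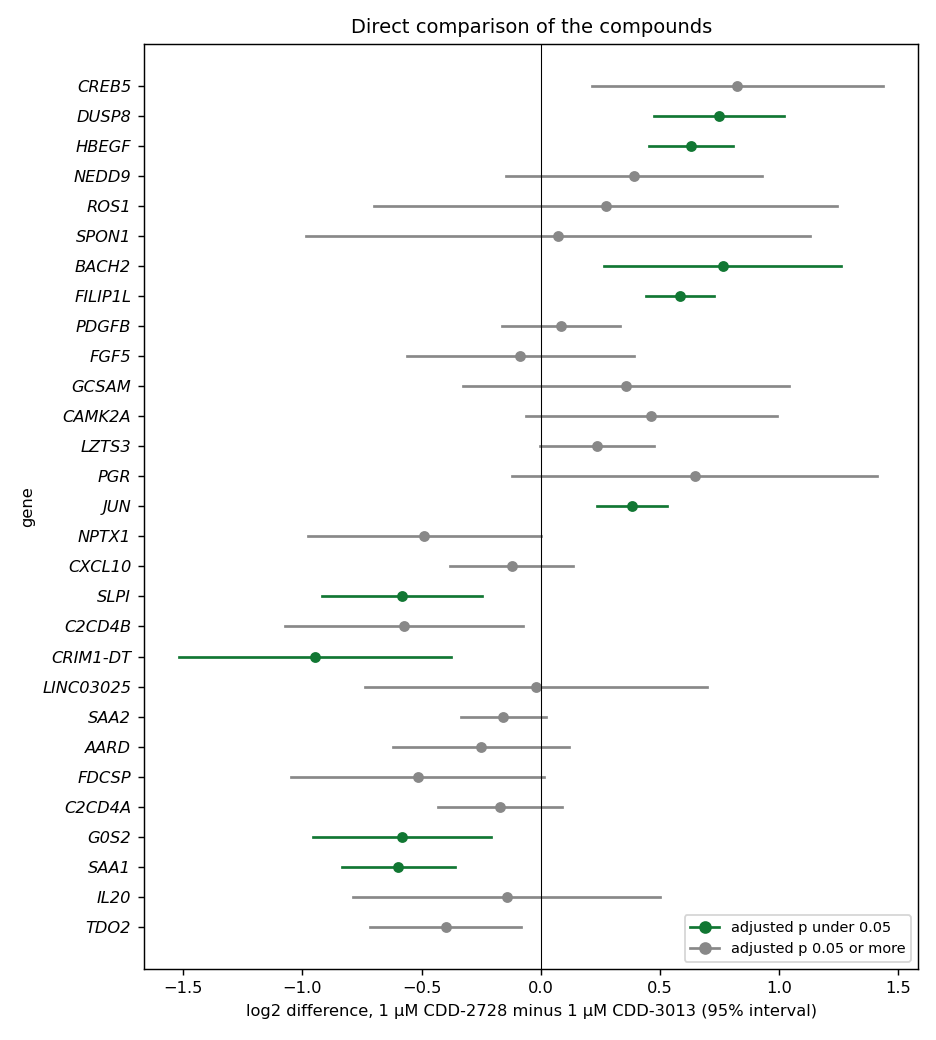
Log2 difference between the compounds at 1 µM (CDD-2728 minus CDD-3013) with its 95% interval, for the largest shared changes and JUN in the order of their pooled change. Green marks an adjusted p under 0.05 over all tested genes, while the intervals are not adjusted; the lowered genes DUSP8, HBEGF, BACH2, FILIP1L and JUN lie right of 0, and SAA1, G0S2 and SLPI lie left of it.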

How the data were processed

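Poly(A) RNA of 12Z cells was sequenced in 10 samples, and 6 enter this comparison. The reads went through fastp, STAR and featureCounts on hg38, per the submitters' processing notes, and no version, setting or strandedness was found in those notes. The authors deposited raw gene counts, whole reads per gene ID and library, with no normalization. Of 62750 IDs, 58279 were found in GENCODE 29, from which coordinates, length and GC content came. Symbols came from a separate list of gene names, which matched 61918 IDs with their version and 707 without it. Without stated strandedness, overlapping and antisense genes cannot be told apart.

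All 10 libraries entered 1 edgeR 4.0.16 quasi-likelihood fit in R 4.3.3 (TMM, minimum count 10, robust, 5 residual degrees of freedom), with Benjamini-Hochberg adjustment over 15740 tested genes and a threshold of 0.05. The pooled contrast is the mean of both inhibitor groups minus IL1β. A shared change needed a pooled call and log2 CPM (prior count 2) of all 4 inhibitor libraries beyond both IL1β libraries. SEs are Wald values, not below counting error, and list medians are of log2 changes. Library totals of 16312600 to 19479416 counts and a common biological coefficient of variation of 0.06 set the precision, and counting error is largest in genes of few CPM. The fit was tested on simulated data.

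Named genes were the 14 largest shared changes in each direction with a mean CPM of at least 2 (no clone names, antisense genes or pseudogenes), up to 3 called members of each list by adjusted p, the 5 largest differences between the compounds in each direction, and a set of JNK and inflammatory genes; the text gives part of them, and some are not reported here. Members and lists were chosen with earlier results of these data known. Alternatives were other size factors, filters, DESeq2 1.42.0, fits of the 6 libraries, a replicate block, offsets for length and GC content (loess span 0.3) and leaving out each library.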

Additional observations from a re-analysis of the deposited data

Results flagged for a closer look

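The compounds differed at 1 µM in 31 of the named genes (edgeR quasi-likelihood test of CDD-2728 minus CDD-3013, adjusted p under 0.05). Some named genes were chosen because their differences in this same test were among the largest, so the count of 31 is a description only. Over all tested genes, 17.9% were called in this test. Values are log2 differences, CDD-2728 minus CDD-3013. The difference was positive for DUSP8 (0.75), HBEGF (0.63), BACH2 (0.76), FILIP1L (0.59), TNC (0.48), TRAF1 (0.48), JUN (0.38), KLF6 (0.31), TGFB2 (0.35), ITGA2 (0.55), SKIL (0.63), ITGB8 (0.59), DUSP16 (0.30), ALCAM (0.31) and MAPK8 (0.32). It was negative for CNN1 (-1.11), MCM7 (-0.26), MCM2 (-0.27), NQO1 (-0.28), CEBPB (-0.32), JUNB (-0.52), BCL3 (-0.27), PSMB8 (-0.43), PSMB10 (-0.51), CHAC1 (-0.61), CDC42EP5 (-1.10), ID1 (-0.63), CHI3L1 (-0.46), SLPI (-0.58), G0S2 (-0.58) and SAA1 (-0.60). MAPK8, which encodes JNK1, is among them although the pooled comparison with IL1β did not call it, with 33.7 and 32.5 CPM with CDD-2728 and 27.2 and 25.8 CPM with CDD-3013, against 32.1 and 35.7 CPM with IL1β. Its call held in 9 of 15 alternatives, and with length and GC offsets the difference was 0.07 (adjusted p = 0.756). CNN1, a smooth muscle calponin, had 1.18 and 1.61 CPM with CDD-2728 and 2.61 and 3.42 CPM with CDD-3013, against 2.35 and 2.83 CPM with IL1β, and with the same offsets its difference did not pass (-0.86, adjusted p = 0.118). Those offsets left 11 of the 31 called.

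In 3 named genes 1 of the 4 inhibitor libraries stood far from the other 3: VCAM1 at 391.8 CPM in CDD-3013 replicate 1, TNFAIP3 at 702.8 CPM in CDD-2728 replicate 2 and TNFSF10 at 16.4 CPM in CDD-2728 replicate 2. Chance marks about 1 in 20 groups in this way, and the 4 libraries hold both compounds.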

How the results depend on the processing

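Of 75 named genes called in the pooled comparison, 55 were called under all alternatives that tested them, of 16 run. The fit of the 6 libraries as 2 groups called 181 higher and 223 lower genes, and as many shared changes. Between the compounds, library totals gave 1965 higher genes, offsets for length and GC content 179 higher and 416 lower, and these offsets with the replicate block 155 and 343; the cause was not tested. Each compound called on its own gave 296 higher and 376 lower shared genes, a 1.5-fold minimum 304 and 402, and a 2-fold minimum 91 and 140.

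Leaving out each library gave 821 to 2603 higher and 721 to 2233 lower pooled calls, 796 to 2569 higher and 715 to 2168 lower shared changes, and 338 to 1425 higher and 318 to 1882 lower genes between the compounds. Signs reversed for NFKBIA at -0.052 with the offsets, with or without the block, MAPK10 at -0.25 without IL1β replicate 2 (-0.25 to 0.99 over the libraries left out), and BCL3 between the compounds at 0.027 with the offsets alone and 0.026 with the block. IL6 lost its call in the 2-group fit and with offsets and block together.

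Same-numbered replicates had deviation correlations of -0.11 to 0.05, so the numbers were not shown to pair samples. With a replicate block there were 2098 higher and 1946 lower pooled calls, 1586 and 1607 shared changes and 1174 and 1420 genes between the compounds. With 2 libraries a group, changes of genes at a few CPM are the least certain.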

Other observations

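CDD-2728 was also given at 10 µM, a dose CDD-3013 was not, and levels at the doses are given without a comparison (mean ± SD CPM, n = 2 each). IER3, an immediate-early gene, had 268.5 ± 8.57 CPM with IL1β alone, 205.6 ± 2.21 with 1 µM and 341.4 ± 24.9 with 10 µM CDD-2728, and 216.2 ± 12.3 with 1 µM CDD-3013. PTGER4 had 33.7 ± 4.68, 54.8 ± 2.87, 16.5 ± 0.605 and 50.8 ± 4.36 CPM in the same order. MMP1 had 15.4 ± 1.75, 19.7 ± 0.936, 6.54 ± 0.793 and 21.8 ± 0.355 CPM. TDO2 had 2.39 ± 0.446, 12.3 ± 1.87, 7.23 ± 1.10 and 16.2 ± 0.80 CPM. HBEGF had 152.7 ± 3.21, 49.7 ± 1.26, 27.6 ± 0.569 and 32.1 ± 0.809 CPM.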
